A study of Homo sapiens with 10 samples.

Results

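Interferon-stimulated genes are the genes that cells switch on when interferon or viral RNA is sensed, and 39 of them were examined in 7 ovarian cancer cell lines. The members were chosen by name, as every deposited transcript whose gene name, or any part of a joined name, is one of the 39 symbols. All 39 were found among the 57110 gene identifiers, with 122 of the 99493 transcripts, and 30 of them have more than 1 transcript. All 7 cell lines are established human lines. COV362, COV504, SK-OV-3, OVMANA, OVKATE and OVTOKO each have 1 library sequenced on the nanopore PromethION instrument, and IGROV-1 has 2 PromethION libraries and 2 from the smaller MinION. All 10 came from total RNA, and the labels name no treatment, such as added interferon, and no gene alteration for any line. The study used them to benchmark a method for quantifying transcripts from long reads. The labels do not say whether the IGROV-1 libraries came from separate cultures, so p-values measure only the spread between these libraries, which may be technical.

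Type I and type III interferons act through cell surface receptors and the Janus kinases, which phosphorylate transcription factors such as STAT2. STAT2 joins IRF9 in a complex that binds a DNA element named the interferon-stimulated response element (ISRE) and starts transcription of antiviral genes. The products sense viral RNA, block its translation, degrade it, restrict entry or attach the ubiquitin-like protein ISG15 to other proteins, and many carcinoma cells keep some of these genes on without added interferon.

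RefSeq start sites on GRCh38.p14 were available for 31 of the 39 members (1 of them, DDX58, under its newer symbol RIGI), and the 250 bases before each start were searched. The ISRE letters, taken as GAAA, any 2 bases and GAAA again, read on both strands and with overlapping matches counted, occurred in 22 of the 31 members (71.0%) and in 3.71% of all 27305 genes with such an entry. A match is a description of these letters, not evidence of binding. The windows of 5 members that differ in how their levels behave across the lines are printed 5′ to 3′, in lower case with the ISRE matches (TTTC, any 2 bases and TTTC where the match is on the other strand) in capitals. Each ends before the first base of the most abundant deposited transcript that starts behind it, except the second IFIT3 window, which ends with its match. A scarce transcript of ISG15, ENST00000624697, starts further upstream.

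ISG15, chr1:1013247-1013422, forward strand: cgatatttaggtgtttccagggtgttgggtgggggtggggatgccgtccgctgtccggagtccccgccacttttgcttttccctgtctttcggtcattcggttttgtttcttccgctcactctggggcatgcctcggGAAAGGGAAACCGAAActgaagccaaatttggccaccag
IFIT1, chr10:89392373-89392545, forward strand: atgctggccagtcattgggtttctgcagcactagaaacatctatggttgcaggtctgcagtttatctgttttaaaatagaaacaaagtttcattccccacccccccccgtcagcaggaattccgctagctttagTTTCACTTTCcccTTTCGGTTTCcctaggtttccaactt
IFIT3 first start, chr10:89327747-89327893, forward strand: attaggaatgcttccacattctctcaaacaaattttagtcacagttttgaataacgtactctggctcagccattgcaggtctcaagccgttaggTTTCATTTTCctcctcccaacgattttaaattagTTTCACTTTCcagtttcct
IFIT3 second start, chr10:89332279-89332487, forward strand: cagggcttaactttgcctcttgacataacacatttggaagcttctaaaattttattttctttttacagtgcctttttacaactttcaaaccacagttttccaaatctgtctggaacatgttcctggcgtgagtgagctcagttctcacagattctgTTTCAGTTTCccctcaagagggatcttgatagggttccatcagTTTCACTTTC
IFI27, chr14:94110486-94110732, forward strand: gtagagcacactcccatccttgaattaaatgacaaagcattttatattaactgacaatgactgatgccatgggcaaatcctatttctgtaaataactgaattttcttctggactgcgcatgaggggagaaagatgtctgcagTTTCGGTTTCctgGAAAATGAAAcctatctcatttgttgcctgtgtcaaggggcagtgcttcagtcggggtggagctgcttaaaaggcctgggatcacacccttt
BST2, chr19:17405649-17405880, reverse strand: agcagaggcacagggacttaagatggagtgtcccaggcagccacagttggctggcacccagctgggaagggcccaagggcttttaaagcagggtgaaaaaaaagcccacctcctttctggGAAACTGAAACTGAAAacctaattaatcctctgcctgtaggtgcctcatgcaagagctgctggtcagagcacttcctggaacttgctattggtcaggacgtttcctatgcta

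Each of these windows holds 2 matches, and those of ISG15 and BST2 overlap. IFI27, IFIT1, IFIT3 and ISG15 spanned 4.69 to 10.12 units of log2(CPM + 1) between their lowest and highest library, while BST2 spanned 1.22, the narrowest range of the 39.

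**Figure D1:**
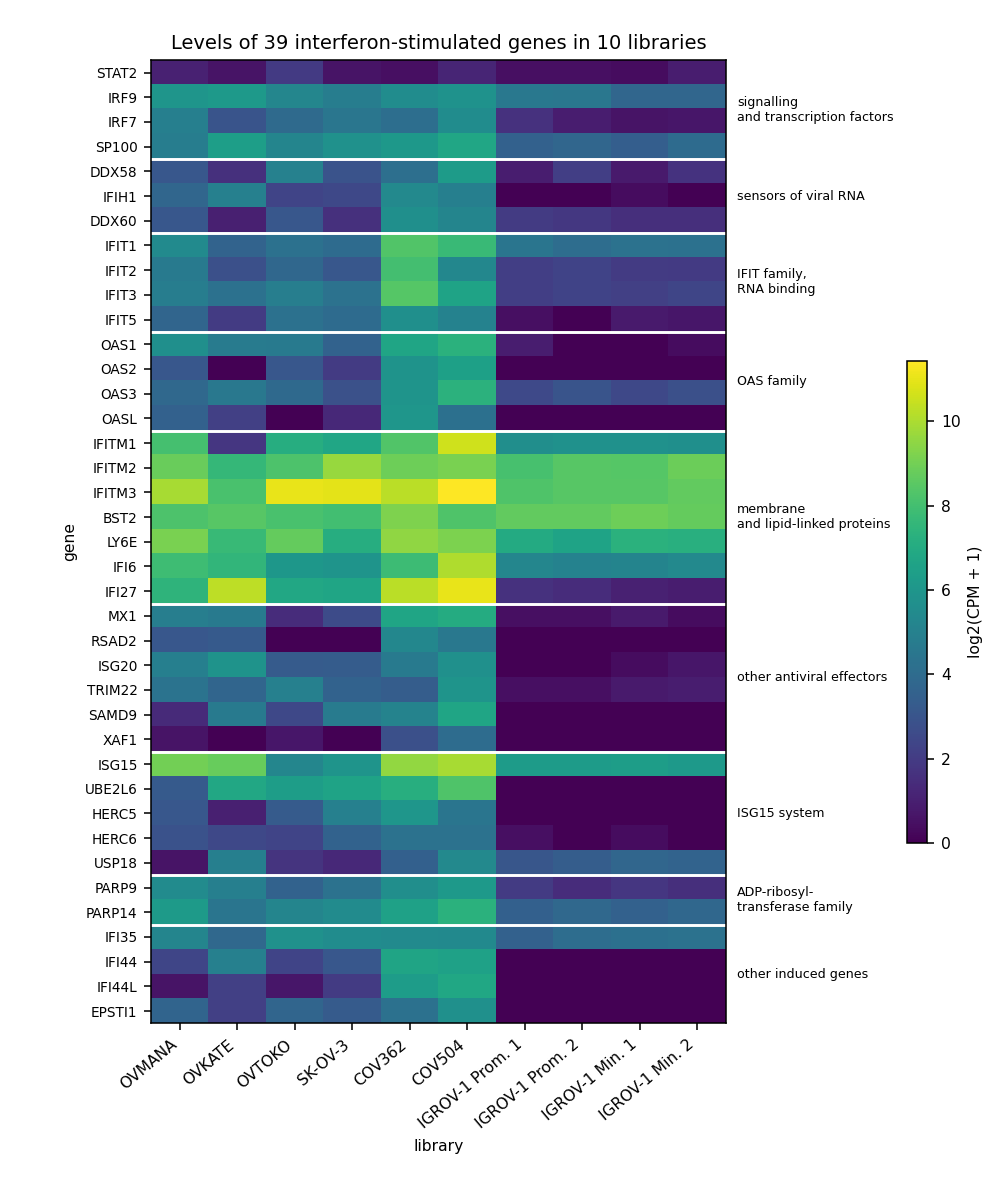
Levels of the 39 members (rows, grouped by role) in the 10 libraries (columns), as log2(CPM + 1) from dark (0) to bright. The 4 IGROV-1 columns are darkest for most rows, COV362 and COV504 are brightest for most rows, and IFITM2, IFITM3 and BST2 are bright in every column.

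Levels are given as CPM, the estimated count of a gene scaled by the library's total and not by transcript length. Levels are compared between libraries, and genes are set against each other only as shares of the members' summed counts. Library totals lay between 1729782 and 3666224 counts, which puts the limit that a count of 0 allows (3 counts) at 0.82 to 1.73 CPM in a library and at 0.64 CPM over both IGROV-1 PromethION libraries. The 39 members together were highest in COV504, at 12452.5 CPM, and in COV362, at 7898.9 CPM. They summed to 4108.0 CPM in OVMANA, 3601.1 CPM in OVKATE, 3971.0 CPM in OVTOKO and 4020.3 CPM in SK-OV-3. IGROV-1 had the lowest sums, at 1444.1 ± 66.3 CPM (SD, n = 2) on PromethION and 1653.3 ± 80.8 CPM (SD, n = 2) on MinION. The sum in COV504 was 8.62 times and that in COV362 5.47 times the IGROV-1 PromethION mean, against 2.49 to 2.84 times in the other 4 lines. In each library 8 genes (IFITM3, IFI27, IFITM1, IFI6, ISG15, BST2, IFITM2 and LY6E) made up 70.4% to 93.6% of the sum. These are bulk samples, in which fewer expressing cells and less RNA per cell cannot be told apart.

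**Figure D2:**
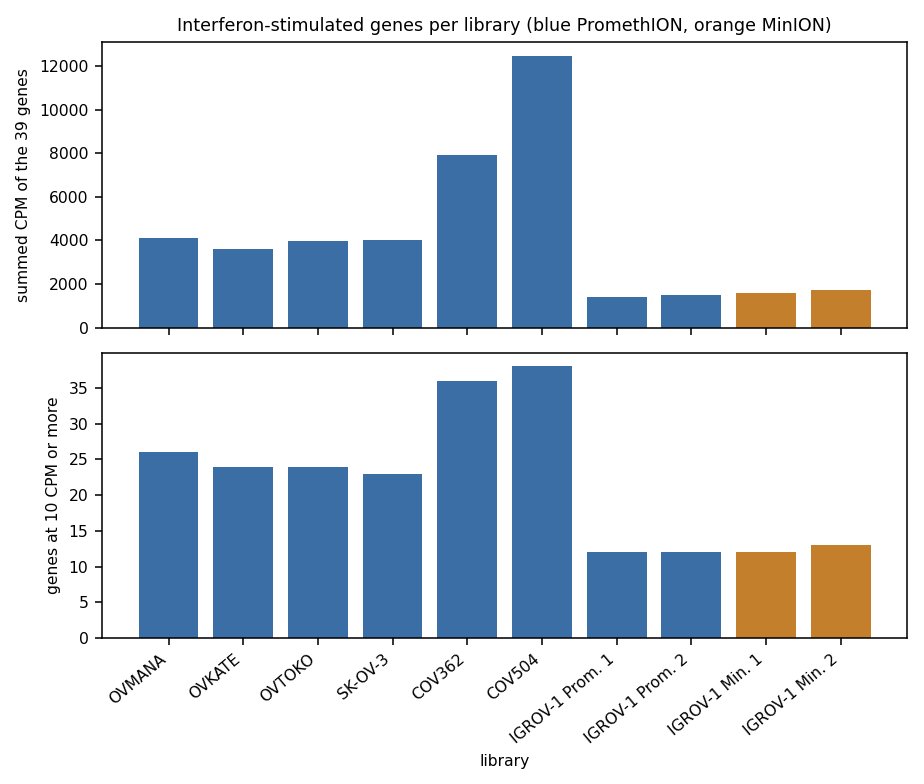
Bars from 0 give the summed CPM of the 39 members (top) and the number of members at 10 CPM or more (bottom) in each of the 10 libraries, blue for PromethION and orange for MinION. COV504 and COV362 stand highest in both, with 38 and 36 members at 10 CPM or more, and the 4 IGROV-1 libraries lowest, with 12 or 13.

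At 10 CPM or more there were 38 of the 39 members in COV504, 36 in COV362, 26 in OVMANA, 24 in OVKATE, 24 in OVTOKO, 23 in SK-OV-3 and 12 or 13 in each IGROV-1 library. COV504 had the highest level of 21 members and COV362 of 13, leaving 2 to OVKATE, 2 to OVTOKO and 1 to SK-OV-3. IGROV-1 had the lowest level of 29 members. Both COV lines stood above every other line for 23 members, as did 4.2% of the genes that reach 10 CPM in some library. Of the 38 members that reach 10 CPM in some line, 10 (OAS2, OASL, RSAD2, SAMD9, XAF1, UBE2L6, HERC5, IFI44, IFI44L and EPSTI1) had no count in any of the 4 IGROV-1 libraries, a state shared by 6.26% of the 11048 genes that reach that level.

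Mitochondrial ribosomal RNA took 9.13% and 10.95% of the counts of the IGROV-1 PromethION libraries and 1.01% to 3.31% of the others, the IGROV-1 MinION libraries included, so it moved with the reference group. With it removed from the totals the member sums were 1605.9 CPM in IGROV-1 PromethION, 8149.9 CPM in COV362 and 12878.3 CPM in COV504. Markers of other cell types were mostly low. Of 10 immune cell markers 6 had no count in any library, with PTPRC at 0.4 CPM or less and CD3E and MS4A1 at 0. The list summed to 0.0 to 16.4 CPM, the most in OVKATE, and 1 immune marker reached 10 CPM in some library. Summed endothelial markers lay at 25.8 CPM in COV504, 10.6 CPM in SK-OV-3 and 9.8 CPM in COV362, and at 0.5 to 7.3 CPM elsewhere. Of these 3 markers 2 reached 10 CPM in some library. Erythroid markers summed to 3.0 CPM or less. The 5 fibroblast markers summed to 434.1 CPM in COV362, almost all of it COL1A2 at 429.4 CPM, to 329.7 CPM in SK-OV-3 and to 113.8 CPM in COV504, against 30.2 CPM or less elsewhere, and their part in the results was not tested. Of 8 epithelial and Mullerian markers the lineage gene PAX8 was at 84.1 to 339.8 CPM and KRT18 at 243.6 CPM or more in every library. KRT19 was at 136.3 CPM or more in each but OVTOKO, at 0.6 CPM. In IGROV-1, KRT8 was at 5.2 to 11.4 CPM, EPCAM at 1.5 CPM or less, and KRT7 and CDH1 had no count. WT1 had counts only in OVKATE, at 76.2 CPM, and COV362, at 0.4 CPM.

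Each line was then compared with the IGROV-1 PromethION libraries by edgeR's quasi-likelihood test over 13030 genes, with Benjamini-Hochberg adjustment and a threshold of 0.05. Only IGROV-1 has replicates, so the single libraries are assumed to vary as its libraries do, and the 6 comparisons share the same reference libraries. Of the 38 members tested (STAT2 had too few counts), 37 were higher and 0 lower in COV362, where 23.7% of all genes were higher and 18.8% lower (at an unadjusted p under 0.05 edgeR had 0 lower, and DESeq2 called 0). In COV504, 37 were higher and 1 lower, against 24.0% and 19.6% of all genes. In OVMANA, 32 were higher and 1 lower, against 18.9% and 16.5% of all genes. In OVTOKO, 28 were higher and 2 lower, against 18.2% and 15.9%. In OVKATE, 25 were higher and 5 lower, against 26.8% and 22.4%. In SK-OV-3, 25 were higher and 3 lower, against 22.0% and 19.8%.

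The median log2 change over the 33 to 38 members with a fold in a line, with genes absent from IGROV-1 set at their lower bound, was 4.83 in COV504, 4.38 in COV362, 2.81 in OVMANA, 2.66 in OVTOKO, 2.24 in OVKATE and 2.23 in SK-OV-3. The median of all genes lay between -0.01 and 0.04. In all 6 lines 15 members were higher, which 2.69% of the tested genes were. Every one of the 38 was higher in at least 1 line, and 7 were lower in at least 1. By DESeq2, 50 of the 196 calls were lost, among them 9 of the 12 lower calls, so that the lower calls of IFITM1 and IFITM2 in OVKATE and of BST2 in SK-OV-3 remained. Of the 38 members 13 lost no call. The losses left 18 of 30 calls in OVKATE and 19 of 30 in OVTOKO. No member's call changed sign when the libraries were scaled by DESeq2's size factors or by their totals alone.

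**Figure D3:**
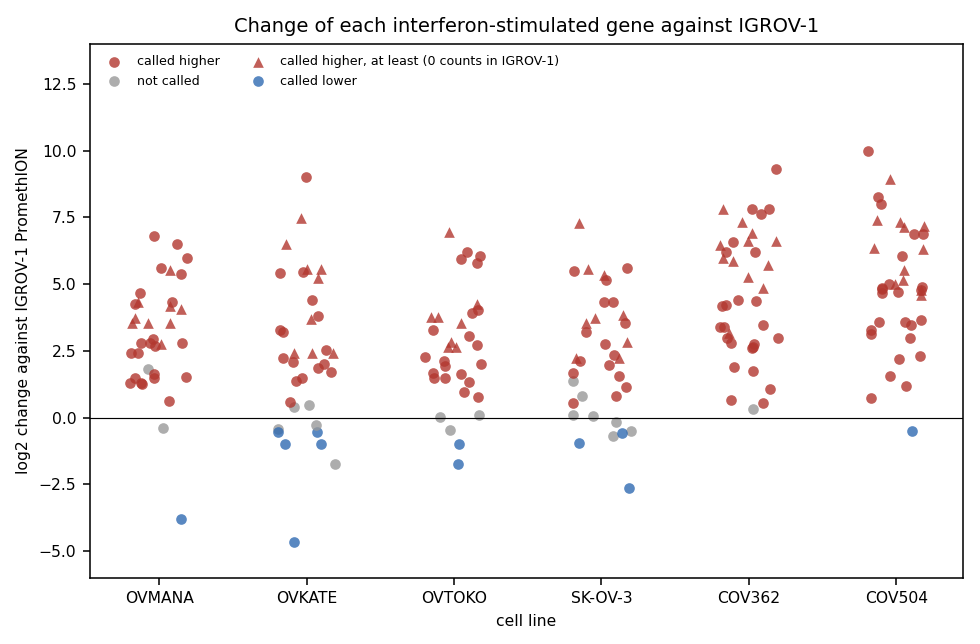
Log2 change of each tested member against the IGROV-1 PromethION libraries in the 6 other lines. Each point is 1 gene, its sideways position within a line carries no meaning, and triangles mark values that are at least as large as drawn because IGROV-1 had no count. Genes called lower, below the line at 0, number 5 in OVKATE, 3 in SK-OV-3, 2 in OVTOKO, 1 in OVMANA, 1 in COV504 and 0 in COV362.

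Among signalling and transcription factors, IRF7, the factor that amplifies interferon production, and SP100, a nuclear body protein, were higher in all 6 lines, though DESeq2 did not call IRF7 in OVKATE or SP100 in OVMANA and OVTOKO. In CPM, IRF7 measured 29.9 in OVMANA, 6.9 in OVKATE, 14.5 in OVTOKO, 21.3 in SK-OV-3, 16.5 in COV362, 46.3 in COV504, 2.1 and 0.9 in IGROV-1 on PromethION and 0.5 and 0.6 on MinION. IRF7 was highest in COV504, with a log2 change of 4.82 (SE 0.38, edgeR adjusted p = 3.7e-05), and every other line stood above the 4 IGROV-1 libraries. The CPM of SP100 was 27.3 in OVMANA, 84.1 in OVKATE, 35.3 in OVTOKO, 53.2 in SK-OV-3, 67.8 in COV362, 106.8 in COV504, 10.7 and 12.5 in IGROV-1 on PromethION and 9.8 and 14.8 on MinION. Its log2 changes ran from 1.29 in OVMANA to 3.12 in COV504. IRF9, the DNA-binding part of the STAT complex, is counted under an identifier joined with RNF31 and AL136295.5. The joined identifier, in CPM, was at 60.4 in OVMANA, 71.7 in OVKATE, 37.0 in OVTOKO, 27.9 in SK-OV-3, 46.2 in COV362, 55.2 in COV504, 23.1 and 22.3 in IGROV-1 on PromethION and 12.8 and 12.7 on MinION. In IGROV-1 the transcript annotated to IRF9 alone took 24.1% and 37.7% of these counts on PromethION and 27.7% and 29.3% on MinION. Its share was 69.5% in COV362, 76.6% in COV504 and 46.9% to 62.1% in the other lines. That identifier was higher in 5 lines and not in SK-OV-3, and all 5 calls were lost by DESeq2. Counting only the transcript annotated to IRF9 alone, ENST00000396864, the log2 change was 0.87 to 2.5 across the lines, smallest in SK-OV-3 (edgeR adjusted p = 0.086). STAT2, its partner, was hardly detected in any line. For STAT2, the level in CPM was 1.1 in OVMANA, 0.5 in OVKATE, 2.9 in OVTOKO, 0.5 in SK-OV-3, 0.4 in COV362, 1.3 in COV504, 0.4 and 0.4 in IGROV-1 on PromethION and 0.3 and 0.9 on MinION. No level passed 2.9 CPM, and OVTOKO had the most.

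The RNA helicases DDX58 (RIG-I) and IFIH1 (MDA5) sense viral RNA in the cytoplasm, and DDX60 is a related helicase. All 3 were higher in OVTOKO, COV362 and COV504, 2 in OVMANA, and 1 each in OVKATE and SK-OV-3, though DESeq2 did not call DDX58 in COV362 or DDX60 in OVMANA and OVTOKO. CPM values of DDX58 were 7.5 in OVMANA, 2.0 in OVKATE, 31.2 in OVTOKO, 6.6 in SK-OV-3, 16.8 in COV362, 75.2 in COV504, 0.9 and 3.4 in IGROV-1 on PromethION and 0.8 and 2.2 on MinION. DDX58 stood out in COV504, and OVKATE was within the IGROV-1 range. IFIH1 levels, in CPM, were 12.8 in OVMANA, 30.7 in OVKATE, 4.0 in OVTOKO, 4.6 in SK-OV-3, 40.7 in COV362, 29.4 in COV504, 0 and 0 in IGROV-1 on PromethION and 0.3 and 0 on MinION. IFIH1 was nearly absent from IGROV-1 and highest in COV362, at least 63.4-fold above the IGROV-1 PromethION limit, with OVKATE at least 47.7-fold above it. The level of DDX60 in CPM was 7.5 in OVMANA, 1.0 in OVKATE, 7.5 in OVTOKO, 2.0 in SK-OV-3, 50.9 in COV362, 36.0 in COV504, 3.0 and 2.6 in IGROV-1 on PromethION and 1.9 and 1.9 on MinION. DDX60 was high in COV362 and COV504, and SK-OV-3 and OVKATE lay within or below the IGROV-1 range.

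The IFIT proteins bind viral RNA ends and hold back its translation, and the 4 genes stand together on chromosome 10. All 4 were higher in COV362, COV504 and OVMANA, 3 in OVTOKO, and 2 each in OVKATE and SK-OV-3, though DESeq2 did not call IFIT1 in OVMANA, IFIT2 in OVTOKO or IFIT5 in OVKATE. In CPM, IFIT1 measured 42.7 in OVMANA, 11.4 in OVKATE, 18.5 in OVTOKO, 15.2 in SK-OV-3, 319.3 in COV362, 215.3 in COV504, 20.5 and 15.9 in IGROV-1 on PromethION and 18.8 and 18.5 on MinION. The CPM of IFIT2 was 24.6 in OVMANA, 5.9 in OVKATE, 13.3 in OVTOKO, 7.6 in SK-OV-3, 261.3 in COV362, 37.8 in COV504, 3.4 and 3.9 in IGROV-1 on PromethION and 3.0 and 2.8 on MinION. IFIT3, in CPM, was at 27.3 in OVMANA, 18.3 in OVKATE, 28.9 in OVTOKO, 18.7 in SK-OV-3, 342.4 in COV362, 98.3 in COV504, 3.4 and 3.9 in IGROV-1 on PromethION and 3.5 and 4.3 on MinION. COV362 had the highest level of all 3, ahead of COV504, and for IFIT1 the IGROV-1 libraries overlapped OVTOKO and stood above OVKATE and SK-OV-3. The log2 changes in COV362 were 6.58 (SE 0.22, edgeR adjusted p = 1.2e-06) for IFIT3, 6.19 (SE 0.22) for IFIT2 and 4.17 (SE 0.19) for IFIT1. IFIT1 was lower in OVKATE, by a log2 change of -0.98 (SE 0.3, edgeR adjusted p = 0.025), a call lost when only library totals set the scale and by DESeq2. IFIT2 is joined with AL353751.1, whose transcript ENST00000354541 took 30.4% of the identifier's counts in COV362 and 56.5% in OVTOKO. Without it the log2 change of IFIT2 was 5.84 in COV362 and 0.91 in OVTOKO, and the OVTOKO call was lost (edgeR adjusted p = 0.23). For IFIT5, the level in CPM was 12.3 in OVMANA, 3.0 in OVKATE, 18.5 in OVTOKO, 15.2 in SK-OV-3, 50.9 in COV362, 32.5 in COV504, 0.4 and 0 in IGROV-1 on PromethION and 0.8 and 0.6 on MinION. IFIT5 was almost absent from IGROV-1, and its COV362 level was 237.8 times (95% counting interval 41.94 to 9464.1) the IGROV-1 PromethION level.

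The OAS enzymes make the oligoadenylates that activate the ribonuclease RNase L, and OASL is an inactive relative that supports RIG-I. All 4 genes were higher in OVMANA, COV362 and COV504, 3 each in OVKATE and OVTOKO, and 2 in SK-OV-3, though DESeq2 did not call OAS3 in OVMANA, OVKATE and OVTOKO or OASL in OVKATE. CPM values of OAS1 were 50.8 in OVMANA, 25.7 in OVKATE, 24.9 in OVTOKO, 11.1 in SK-OV-3, 105.8 in COV362, 154.8 in COV504, 0.9 and 0 in IGROV-1 on PromethION and 0 and 0.3 on MinION. OAS1 was at 1 CPM or less in IGROV-1, and COV504 had 361.46 times (95% counting interval 99.31 to 2996.52) the IGROV-1 PromethION level. OAS2 levels, in CPM, were 7.5 in OVMANA, 0 in OVKATE, 7.5 in OVTOKO, 3.0 in SK-OV-3, 56.8 in COV362, 89.9 in COV504 and 0 in all 4 IGROV-1 libraries. The level of OAS3 in CPM was 13.4 in OVMANA, 23.2 in OVKATE, 13.9 in OVTOKO, 6.1 in SK-OV-3, 59.5 in COV362, 161.1 in COV504, 4.7 and 6.9 in IGROV-1 on PromethION and 4.6 and 5.9 on MinION. COV504 led for both, with OAS2 at least 139.9-fold over the limit in IGROV-1 and OAS3 at a log2 change of 4.71, and OAS3 in SK-OV-3 lay within the IGROV-1 range. In CPM, OASL measured 10.7 in OVMANA, 3.5 in OVKATE, 0 in OVTOKO, 1.5 in SK-OV-3, 63.5 in COV362, 17.8 in COV504 and 0 in all 4 IGROV-1 libraries. For OASL the order of the COV lines turned, with COV362 at least 98.8-fold and COV504 at least 27.7-fold above the IGROV-1 limit.

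The 7 membrane and lipid-linked proteins held 6 of the 12 lower calls, 4 of them in OVKATE, and all 7 were higher in COV362. IFI27, a small mitochondrial and nuclear membrane protein, was higher in all 6 lines. The CPM of IFI27 was 169.9 in OVMANA, 1268.6 in OVKATE, 116.2 in OVTOKO, 105.3 in SK-OV-3, 1222.7 in COV362, 2144.5 in COV504, 2.1 and 1.7 in IGROV-1 on PromethION and 1.1 and 0.9 on MinION. The lines fell into 3 levels, with COV504, OVKATE and COV362 at 1222.7 CPM or more, OVMANA, OVTOKO and SK-OV-3 at 105.3 to 169.9 CPM and IGROV-1 at 2.1 CPM or less. Its log2 change was 9.31 (SE 0.22, edgeR adjusted p = 6.2e-07) in COV362, 9.02 (SE 0.22) in OVKATE and 5.51 (SE 0.26) in SK-OV-3. IFI6, in CPM, was at 231.4 in OVMANA, 185.0 in OVKATE, 64.7 in OVTOKO, 59.8 in SK-OV-3, 227.6 in COV362, 1089.1 in COV504, 37.2 and 32.6 in IGROV-1 on PromethION and 34.9 and 40.8 on MinION. IFI6, a mitochondrial and endoplasmic reticulum protein, was higher in all 6 lines, most in COV504 at a log2 change of 4.88, with the calls in OVTOKO and SK-OV-3 lost by DESeq2.

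The IFITM proteins sit in membranes and block viral fusion, and the 3 genes are near-copies that can share reads, so their split is uncertain. For IFITM1, the level in CPM was 266.1 in OVMANA, 2.5 in OVKATE, 137.6 in OVTOKO, 106.9 in SK-OV-3, 315.4 in COV362, 1578.1 in COV504, 49.5 and 54.6 in IGROV-1 on PromethION and 54.3 and 50.7 on MinION. CPM values of IFITM3 were 986.9 in OVMANA, 284.4 in OVKATE, 2095.1 in OVTOKO, 1966.6 in SK-OV-3, 1218.0 in COV362, 2757.5 in COV504, 311.4 and 354.8 in IGROV-1 on PromethION and 347.8 and 406.0 on MinION. IFITM1 was highest in COV504 and nearly absent from OVKATE, the line with the lowest IFITM3 as well. The log2 change of IFITM1 was 4.84 (SE 0.16, edgeR adjusted p = 1.2e-06) in COV504 and -4.66 (SE 0.34, edgeR adjusted p = 2.3e-05) in OVKATE. IFITM3 was higher in 5 lines, by 2.97 in COV504 and 2.73 in OVTOKO, and lower in OVKATE, at -0.53, a call lost under both other scalings and by DESeq2. IFITM2 levels, in CPM, were 456.9 in OVMANA, 192.4 in OVKATE, 299.5 in OVTOKO, 813.4 in SK-OV-3, 477.2 in COV362, 554.8 in COV504, 273.8 and 350.9 in IGROV-1 on PromethION and 340.7 and 457.6 on MinION. IFITM2 was lowest in OVKATE, with a log2 change of -1.0, and highest in SK-OV-3, with 1.15, and the 4 IGROV-1 libraries overlapped OVMANA and OVTOKO. The level of LY6E in CPM was 566.9 in OVMANA, 207.2 in OVKATE, 424.9 in OVTOKO, 139.8 in SK-OV-3, 739.7 in COV362, 579.3 in COV504, 124.7 and 97.5 in IGROV-1 on PromethION and 158.7 and 145.2 on MinION. LY6E, a lipid-anchored surface protein that restricts coronaviruses, was higher in 5 lines, most in COV362 at a log2 change of 2.78, and not in SK-OV-3. DESeq2 did not call LY6E in OVKATE, IFITM1 in SK-OV-3 or IFITM2 in OVMANA and COV362.

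BST2 (tetherin), which holds budding virions on the cell surface, did not follow the other members. In CPM, BST2 measured 299.2 in OVMANA, 352.6 in OVKATE, 279.8 in OVTOKO, 251.7 in SK-OV-3, 588.4 in COV362, 310.5 in COV504, 415.2 and 409.3 in IGROV-1 on PromethION and 473.5 and 424.8 on MinION. The 4 IGROV-1 libraries stood above every other line except COV362. The log2 change was 0.56 (SE 0.16, edgeR adjusted p = 0.023) in COV362 and -0.94 (SE 0.17, edgeR adjusted p = 0.0031) in SK-OV-3. Its lower calls in OVKATE (-0.53) and COV504 (-0.49) were lost under both other scalings, and DESeq2 kept only the call in SK-OV-3 of its 4.

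Of 6 other antiviral effectors, all were higher in COV362 and COV504, 5 in OVKATE, 4 in OVMANA, 4 in SK-OV-3 and 3 in OVTOKO, though DESeq2 did not call MX1 in SK-OV-3. MX1 is a GTPase that traps viral nucleocapsids. The CPM of MX1 was 28.9 in OVMANA, 25.2 in OVKATE, 1.7 in OVTOKO, 5.1 in SK-OV-3, 105.0 in COV362, 130.8 in COV504, 0.4 and 0.4 in IGROV-1 on PromethION and 0.8 and 0.3 on MinION. MX1 was at 1 CPM or less in IGROV-1 and at 1.7 CPM in OVTOKO, and COV504 had 305.37 times (95% counting interval 83.79 to 2533.37) the IGROV-1 PromethION level. SAMD9, in CPM, was at 1.6 in OVMANA, 24.2 in OVKATE, 4.6 in OVTOKO, 26.3 in SK-OV-3, 34.1 in COV362, 104.6 in COV504 and 0 in all 4 IGROV-1 libraries. SAMD9, a restriction factor for poxviruses, was absent from IGROV-1 and at least 162.7-fold above its limit in COV504, with OVMANA lowest of the other lines. For ISG20, the level in CPM was 29.9 in OVMANA, 58.4 in OVKATE, 8.7 in OVTOKO, 9.1 in SK-OV-3, 24.7 in COV362, 51.6 in COV504, 0 and 0 in IGROV-1 on PromethION and 0.3 and 0.6 on MinION. ISG20, an exonuclease, was highest in OVKATE, at least 90.8-fold above the IGROV-1 PromethION limit, next to COV504 at least 80.3-fold. CPM values of TRIM22 were 19.2 in OVMANA, 12.4 in OVKATE, 30.1 in OVTOKO, 11.1 in SK-OV-3, 9.4 in COV362, 60.1 in COV504, 0.4 and 0.4 in IGROV-1 on PromethION and 0.8 and 0.9 on MinION. TRIM22, a ubiquitin ligase, was highest in COV504, and its CPM in COV362 was below that in OVMANA, OVKATE, OVTOKO and SK-OV-3. With 24 counts in COV362, 22 in SK-OV-3 and 25 in OVKATE, the order of those lines is uncertain. RSAD2 levels, in CPM, were 7.5 in OVMANA, 8.4 in OVKATE, 0 in OVTOKO, 0 in SK-OV-3, 37.6 in COV362, 22.7 in COV504 and 0 in all 4 IGROV-1 libraries. RSAD2 (viperin), which makes a chain-terminating nucleotide, had no count in IGROV-1, OVTOKO or SK-OV-3. The level of XAF1 in CPM was 0.5 in OVMANA, 0 in OVKATE, 0.6 in OVTOKO, 0 in SK-OV-3, 5.9 in COV362, 15.6 in COV504 and 0 in all 4 IGROV-1 libraries. XAF1, a pro-apoptotic protein, was called only in COV504 and COV362 among the 6 lines, at least 24.2-fold and 9.1-fold above the IGROV-1 limit, and both calls were lost by DESeq2.

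ISG15 is attached to proteins by the conjugating enzyme UBE2L6 and the ligase HERC5, and USP18 removes it and dampens the interferon receptor. In CPM, ISG15 measured 514.0 in OVMANA, 442.7 in OVKATE, 36.4 in OVTOKO, 59.8 in SK-OV-3, 774.1 in COV362, 978.4 in COV504, 77.3 and 75.2 in IGROV-1 on PromethION and 82.4 and 71.7 on MinION. ISG15 split the lines, with COV504, COV362, OVMANA and OVKATE above the 4 IGROV-1 libraries and OVTOKO and SK-OV-3 below them. The log2 change was 3.6 (SE 0.17, edgeR adjusted p = 3.1e-06) in COV504, -0.99 (SE 0.22, edgeR adjusted p = 0.0095) in OVTOKO and -0.58 (SE 0.2) in SK-OV-3, where the call was lost under both other scalings, and DESeq2 kept neither lower call. The CPM of UBE2L6 was 8.5 in OVMANA, 114.3 in OVKATE, 80.4 in OVTOKO, 99.3 in SK-OV-3, 144.2 in COV362, 312.3 in COV504 and 0 in all 4 IGROV-1 libraries. UBE2L6 had no count in IGROV-1 and was at least 486.1-fold above its limit in COV504, at least 125.1-fold in OVTOKO and at least 13.3-fold in OVMANA, its lowest line after IGROV-1. HERC5, in CPM, was at 7.5 in OVMANA, 1.0 in OVKATE, 8.7 in OVTOKO, 30.4 in SK-OV-3, 63.1 in COV362, 20.5 in COV504 and 0 in all 4 IGROV-1 libraries. HERC5 was highest in COV362, at least 98.2-fold above the IGROV-1 limit, and then in SK-OV-3. For HERC6, the level in CPM was 6.4 in OVMANA, 4.5 in OVKATE, 4.0 in OVTOKO, 11.1 in SK-OV-3, 18.8 in COV362, 18.7 in COV504, 0.4 and 0 in IGROV-1 on PromethION and 0.3 and 0 on MinION. HERC6, a relative of HERC5, was higher in all 6 lines by edgeR and in COV362 and COV504 by DESeq2, with COV362 at 87.8 times (95% counting interval 15.02 to 3539.43) the IGROV-1 PromethION level.

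USP18 moved in both directions, and a near-identical copy can share its reads. CPM values of USP18 were 0.5 in OVMANA, 29.2 in OVKATE, 2.3 in OVTOKO, 1.5 in SK-OV-3, 10.2 in COV362, 40.5 in COV504, 7.3 and 9.4 in IGROV-1 on PromethION and 12.8 and 11.4 on MinION. COV504 and OVKATE stood above IGROV-1, COV362 within its range, and OVMANA, SK-OV-3 and OVTOKO below it. The log2 change was 2.19 (SE 0.29, edgeR adjusted p = 0.00052) in COV504. With 3 counts in SK-OV-3 and 1 in OVMANA, the ratio to IGROV-1 PromethION was 0.18 (95% counting interval 0.04 to 0.57) in SK-OV-3 and 0.06 (95% counting interval 0.0 to 0.38) in OVMANA, both called lower by edgeR, as was OVTOKO. DESeq2 kept none of the 5 calls of USP18.

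PARP9 and PARP14 are ADP-ribosyltransferase family proteins that act with STAT signalling. PARP9 levels, in CPM, were 44.3 in OVMANA, 29.2 in OVKATE, 11.0 in OVTOKO, 18.7 in SK-OV-3, 49.4 in COV362, 69.4 in COV504, 3.0 and 1.7 in IGROV-1 on PromethION and 2.5 and 1.9 on MinION. The level of PARP14 in CPM was 73.2 in OVMANA, 20.8 in OVKATE, 35.8 in OVTOKO, 45.1 in SK-OV-3, 92.1 in COV362, 158.8 in COV504, 10.3 and 13.7 in IGROV-1 on PromethION and 10.6 and 13.3 on MinION. PARP9 was higher in all 6 lines, by 2.27 in OVTOKO up to 4.77 in COV504 on the log2 scale. Neither was called in OVTOKO by DESeq2. PARP14 was higher in 5 and in OVKATE had a log2 change of 0.49 (edgeR adjusted p = 0.19). Of 4 further induced genes, all were higher in SK-OV-3, COV362 and COV504 and 3 in each other line, though DESeq2 did not call EPSTI1 in OVKATE or IFI35 in OVMANA, SK-OV-3, COV362 and COV504. In CPM, IFI44 measured 4.3 in OVMANA, 30.2 in OVKATE, 4.0 in OVTOKO, 7.6 in SK-OV-3, 102.6 in COV362, 93.4 in COV504 and 0 in all 4 IGROV-1 libraries. The CPM of IFI44L was 0.5 in OVMANA, 3.5 in OVKATE, 0.6 in OVTOKO, 3.0 in SK-OV-3, 78.0 in COV362, 109.9 in COV504 and 0 in all 4 IGROV-1 libraries. These 2 neighbouring genes were absent from IGROV-1 and highest in the COV lines, at least 171.0-fold above the IGROV-1 limit for IFI44L in COV504 and at least 159.8-fold for IFI44 in COV362. EPSTI1, in CPM, was at 11.8 in OVMANA, 3.5 in OVKATE, 12.1 in OVTOKO, 8.6 in SK-OV-3, 18.4 in COV362, 52.5 in COV504 and 0 in all 4 IGROV-1 libraries. For IFI35, the level in CPM was 36.3 in OVMANA, 13.4 in OVKATE, 54.3 in OVTOKO, 45.6 in SK-OV-3, 43.5 in COV362, 41.4 in COV504, 10.7 and 15.9 in IGROV-1 on PromethION and 17.5 and 18.8 on MinION. EPSTI1 was at least 81.7-fold above the IGROV-1 limit in COV504, while IFI35, a partner of NMI, was highest in OVTOKO and was not called in OVKATE (-0.29, edgeR adjusted p = 0.5).

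COV504 and COV362, the lines with the highest levels, were also compared with each other, a comparison chosen after seeing the data. COV504 was higher for 13 of 38 members and lower for 6, against 13.0% and 12.2% of all genes. The 13 were TRIM22, IFITM1, IFI6, DDX58, USP18, SAMD9, EPSTI1, IRF7, OAS3, IFITM3, UBE2L6, ISG20 and IFI27, with log2 differences of 2.55 for TRIM22 and 2.2 for IFITM1 down to 0.69 for IFI27. Lower in COV504 were IFIT2 at -2.91 (SE 0.21, edgeR adjusted p = 0.00019), OASL at -1.95, IFIT3 at -1.92, HERC5 at -1.74, BST2 at -1.04 and IFIT1 at -0.69. So 3 of the 4 IFIT genes were higher in COV362. IFIT2 is here counted with AL353751.1, whose transcript ENST00000354541 took 30.4% of the identifier's counts in COV362 and 6.0% in COV504. Without that transcript the log2 change of IFIT2 against IGROV-1 was 5.84 in COV362 and 3.36 in COV504. The direct comparison of the COV lines was not run without it. Each line has a single library, so the test rests on the IGROV-1 spread.

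**Figure D4:**
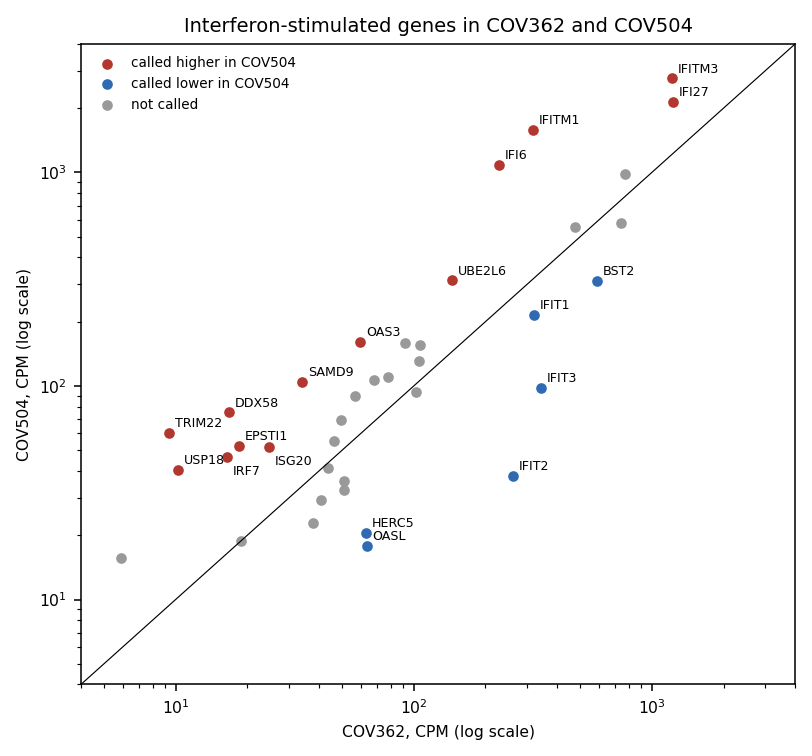
Level of each member in COV504 against COV362, in CPM on log axes, with the line of equal levels, red where COV504 was called higher, blue where lower and grey where not called. IFIT2 (counted with AL353751.1), IFIT3, OASL and HERC5 lie on the COV362 side and TRIM22, IFITM1, IFI6 and DDX58 on the COV504 side.

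Set against the mean log2 level of the other 6 lines, with all 10 libraries in the fit, 34 of 38 members were higher in COV504 (20.6% of all genes) and 31 in COV362 (22.9%), and 0 were lower in either (9.19% and 11.2% of all genes). At an unadjusted p under 0.05, 0 members in COV504 and 0 in COV362 were lower by edgeR, and DESeq2 called 0 and 0. In IGROV-1 31 members were lower (16.9%) and 1 higher (25.7%). OVMANA had 15 higher (19.1%) and 1 lower (10.5%), OVKATE 12 higher (26.0%) and 13 lower (15.1%), OVTOKO 7 higher (17.6%) and 6 lower (8.95%), and SK-OV-3 5 higher (19.3%) and 14 lower (12.0%). These comparisons share all their libraries, and only 26 of the 38 members had PromethION counts in all 7 lines. For the rest, a 0 in 1 line lowers the mean of the others, so their higher calls can rest on that 0. IFI44, with no count in IGROV-1, was called higher in OVKATE at 30.2 CPM. Its level was 102.6 CPM in COV362 and 93.4 CPM in COV504. The comparisons with the other 6 lines made 170 calls in all by edgeR and 110 by DESeq2.

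The genes that carry the signal were looked at in lists chosen for their roles, in the same comparisons with IGROV-1, where 18.2% to 26.8% of all genes were higher and 15.9% to 22.4% lower. Interferons themselves were hardly seen: 18 of 21 ligand genes had no count in any library, and the list summed to 2.0 CPM or less, with IFNL1 at 0.8 CPM in COV362 and 1.8 CPM in COV504 and IFNB1 at 0.4 CPM in COV362. Of 6 receptor genes 4 were tested, with 1 or 2 higher in each line and 1 lower in OVMANA. Of 11 kinases and further transcription factors, 4 to 6 were higher and 1 or 2 lower in each line. JAK1, the kinase shared by all interferon receptors, was higher in all 6 lines. CPM values of JAK1 were 109.0 in OVMANA, 50.4 in OVKATE, 118.5 in OVTOKO, 119.0 in SK-OV-3, 37.6 in COV362, 55.6 in COV504, 6.0 and 4.3 in IGROV-1 on PromethION and 5.7 and 5.6 on MinION. The 4 IGROV-1 libraries held 6.0 CPM or less and the next line, COV362, 37.6 CPM, with log2 changes of 2.9 (SE 0.27, edgeR adjusted p = 9.9e-05) in COV362 to 4.59 (SE 0.24) in OVTOKO. NMI, which binds STATs and IFI35, was at 1.3 to 3.7 CPM in IGROV-1 and at 40.6 to 102.3 CPM in the other lines.

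Of 42 further genes known to respond to type I interferon, 39 were tested. Higher were 35 in COV504, 32 in COV362, 22 in OVTOKO, 20 in OVKATE, 19 in OVMANA and 18 in SK-OV-3, and at most 2 were lower in any line. Their median log2 change was 3.5 in COV504, 2.47 in COV362 and 0.89 to 1.3 in the other 4 lines. TNFSF10, the death ligand TRAIL, had no count in IGROV-1 and 19.1 to 315.9 CPM elsewhere, and IFI16, a sensor of DNA, no count in IGROV-1 and 10.2 to 94.0 CPM elsewhere. PSMB8, an immunoproteasome subunit, was at 0.4 CPM or less in IGROV-1 and at 49.2 to 245.7 CPM elsewhere. Of 9 genes of upstream nucleic acid sensing tested, 2 to 5 were higher and 1 or 2 lower in each line (SK-OV-3 had 2 and 2, near the shares of 22.0% and 19.8% over all genes), and MB21D1 (cGAS), the sensor of cytosolic DNA, had no count in IGROV-1 or SK-OV-3 and at most 15.1 CPM, in COV504. Of 7 negative regulators tested, 1 to 3 were higher in each line and at most 3 lower, against 18.2% to 26.8% of all genes higher and 15.9% to 22.4% lower. Among them SAMHD1, an enzyme that depletes nucleotides, was at 155.7 CPM in COV504 and at 11.0 to 50.5 CPM elsewhere.

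Likeness across the lines was measured as Pearson's r of log2(CPM + 1) over 7 lines with the mean of the members, each member against the mean of the others, as a description. It was 0.7 or more for 31 of 38 members and for 4.02% of 11275 other genes, and 0.9 or more for 24 of those (0.21%). OAS1 (0.95) and IFIT3 (0.93) were most like the mean, and BST2 (0.18), USP18 (0.33) and IFITM2 (0.37) least. The 10 outside genes most like the members were DHRS3 (0.968), ALDH1A3 (0.96), EIF2AK2 (0.959), CD55 (0.947), SASH1 (0.946), UTP20 (0.946), ANKRD26 (0.942), SP110 (0.92), TNFSF10 (0.917) and CCDC80 (0.916). EIF2AK2, SP110 and TNFSF10 are themselves on the list of interferon-responding genes, and 9 of that list's 39 ranked genes were among the 100 most alike. The 7 points share the members' libraries, and 6 of them are single libraries.

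Long reads separate transcripts of a gene, and the members' transcripts were compared where a gene had 20 or more counts. The main transcript of IFI27, ENST00000621160, starts its coding sequence in an exon that ENST00000618863 lacks, and the annotated coding sequence of the latter starts in a later exon. The coding bases of that exon (GENCODE 29 on GRCh38, forward strand) are shown because their presence separates the transcripts.

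IFI27 ENST00000621160, chr14:94111683-94111773: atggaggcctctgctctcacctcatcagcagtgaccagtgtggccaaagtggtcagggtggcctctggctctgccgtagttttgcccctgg

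The share of IFI27 counts in ENST00000618863, with its Wilson interval, was 6.9% (4.6 to 10.3) in OVMANA, 42.0% (40.1 to 43.9) in OVKATE, 10% (6.5 to 14.9) in OVTOKO, 9.1% (5.9 to 13.8) in SK-OV-3, 7.7% (6.8 to 8.7) in COV362 and 26.5% (25.3 to 27.8) in COV504. OVKATE and COV504 had the largest shares, and their intervals, which cover counting error only, overlap neither each other nor those of the other 4 lines. Between pairs of the 6 lines, a set of 15 comparisons chosen after seeing the data, edgeR's test of transcript usage called IFI27 in 5 and IFITM2 in 4, and 0.19% to 1.63% of genes were called. The calls of IFI27 were OVKATE against COV362 (Simes, Benjamini-Hochberg adjusted p = 0.0014, 0.951% of genes called), OVMANA (0.0062, 1.06%), SK-OV-3 (0.023, 1.63%) and OVTOKO (0.028, 1.61%), and COV504 against COV362 (0.016, 0.444%). IFI27 was not called for COV504 against OVKATE, OVMANA, OVTOKO or SK-OV-3, although those intervals do not overlap. The calls rest on the IGROV-1 spread. The call of OVKATE against COV362 was lost without either MinION library (adjusted p up to 0.068) and that against OVMANA without either or both MinION libraries (up to 0.13). The other 3 calls were lost when any 1 IGROV-1 library or both MinION libraries were left out, with an adjusted p of up to 0.2 for OVKATE against SK-OV-3 and OVTOKO and up to 0.27 for COV504 against COV362. The calls of IFITM2 were OVMANA against COV504 (edgeR adjusted p = 0.0091, 0.994% of genes called), SK-OV-3 (0.024, 0.740%) and COV362 (0.039, 1.35%), and COV504 against OVTOKO (0.024, 0.973%). That of OVMANA against COV504 was lost without either or both MinION libraries (adjusted p up to 0.16), and the other 3 when any 1 IGROV-1 library or both MinION libraries were left out (up to 0.27).

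**Figure D5:**
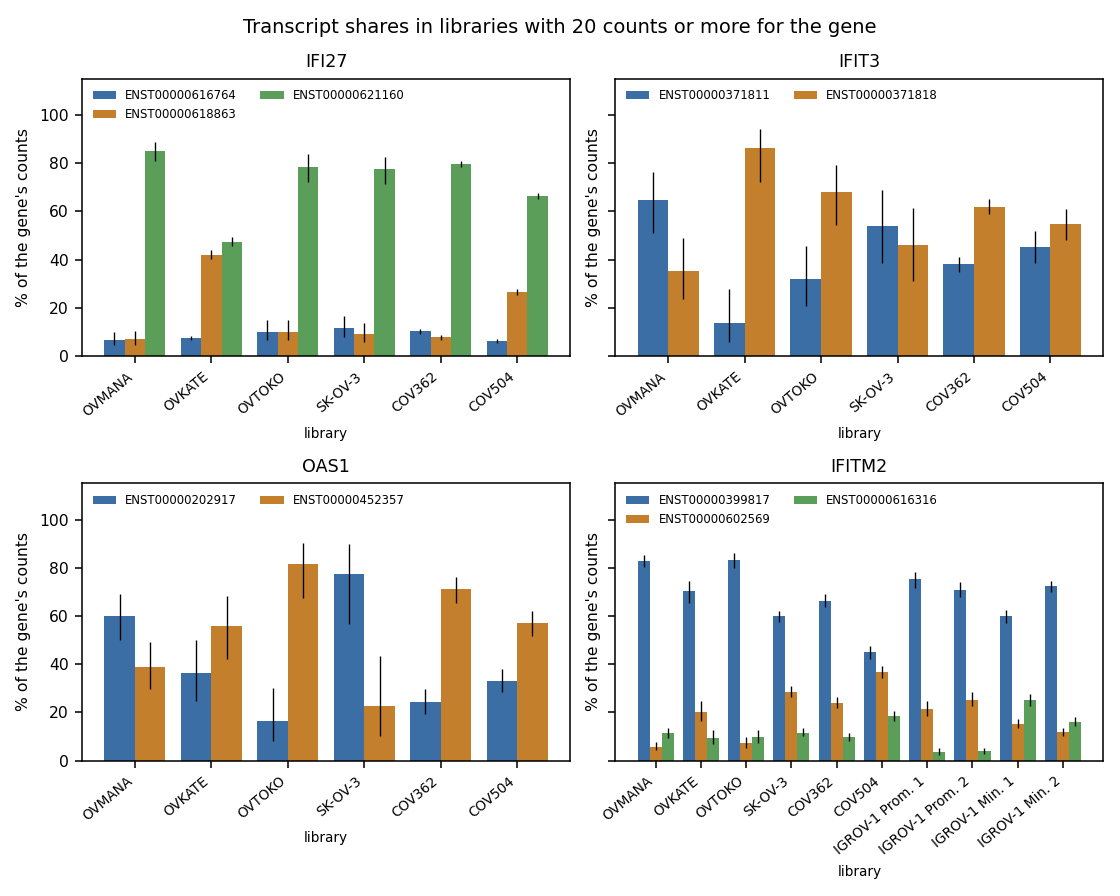
Share of each gene's estimated counts taken by its main transcripts in each library with 20 or more counts, for IFI27, IFIT3, OAS1 and IFITM2, with 95% Wilson intervals that cover counting error only. The share of ENST00000618863 of IFI27 is 42.0% in OVKATE and 26.5% in COV504 and at most 10% in the other 4 lines.

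IFIT3 has 2 first exons, each behind one of the IFIT3 windows printed above. The share of IFIT3 counts in ENST00000371811, with its Wilson interval, was 64.7% (51.0 to 76.4) in OVMANA, 13.5% (5.9 to 28.0) in OVKATE, 32.0% (20.8 to 45.8) in OVTOKO, 54.1% (38.4 to 69.0) in SK-OV-3, 38.0% (34.8 to 41.2) in COV362 and 45.2% (38.8 to 51.8) in COV504. The second start had its smallest share in OVKATE and its largest in OVMANA. IGROV-1 had too few IFIT3 counts for a share, at 8 and 9 on PromethION and 13 and 14 on MinION. There the second start was estimated at 0.09 to 0.25 CPM and the first at 3.17 to 4.24 CPM. The values of the second start lie under the limit for a count of 0, so its share in IGROV-1 is uncertain. No usage test called IFIT3 (smallest adjusted p between 2 of the 6 lines 0.2, edgeR). OAS1 makes proteins with different ends from the same exon, the fifth: ENST00000452357 reads past its end, and ENST00000202917 joins it to a further exon. The coding bases that each adds after the shared part (GENCODE 29 on GRCh38, forward strand) are shown because they tell the products apart.

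OAS1 ENST00000452357, chr12:112917701-112917754: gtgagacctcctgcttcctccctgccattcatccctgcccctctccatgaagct
OAS1 ENST00000202917, chr12:112919389-112919550: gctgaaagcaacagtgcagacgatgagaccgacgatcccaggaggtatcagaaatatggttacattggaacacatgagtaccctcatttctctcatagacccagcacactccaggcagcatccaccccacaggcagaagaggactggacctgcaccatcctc

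The share of OAS1 counts in ENST00000452357, with its Wilson interval, was 38.9% (29.8 to 49.0) in OVMANA, 55.8% (42.3 to 68.4) in OVKATE, 81.4% (67.4 to 90.3) in OVTOKO, 22.7% (10.1 to 43.4) in SK-OV-3, 71.1% (65.4 to 76.2) in COV362 and 56.9% (51.6 to 62.0) in COV504. ENST00000202917 made up the rest for the most part, from 16.3% in OVTOKO to 77.3% in SK-OV-3. The counts are few outside the COV lines, and no usage test called OAS1 (smallest adjusted p between 2 of the 6 lines 0.37, edgeR).

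SP100 had ENST00000409341 as its most abundant transcript in 8 libraries and ENST00000409824 in the second IGROV-1 library of each instrument. In those, ENST00000409824 took 28.6% against 25.0% of 28 counts on PromethION and 33.3% against 20.8% of 48 on MinION. The Wilson intervals of the transcripts overlap in both, and no usage test called SP100. Against IGROV-1, usage could be tested for 19 members, and 1 was called, IFITM2, in OVMANA (edgeR adjusted p = 0.015) and COV504 (0.0043), where 9.34% of 4730 genes were called in some line. Some of the members tested had too few counts in IGROV-1 for a share there. OAS2, SAMD9 and UBE2L6 had none, and OAS1, IRF7 and IFI27 had 2, 7 and 9 over its PromethION libraries. For these the absence of a call says nothing about usage. ENST00000616316 of IFITM2 took 3.4% and 3.8% of its counts in the IGROV-1 PromethION libraries, 25.0% and 16.0% in the MinION libraries and 9.5% to 18.4% in the other lines. IFITM2 was also called between the instruments within IGROV-1 (edgeR adjusted p = 0.00052, 5.98% of genes called), and its near-copies can share reads. Both calls against IGROV-1 were lost, leaving 0 of the members, when any 1 IGROV-1 library or both MinION libraries were left out.

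Levels were also compared between instruments. Between MinION and PromethION libraries of IGROV-1, edgeR called 0 of 15 members tested (0.817% of all genes) and DESeq2 0, with 2 at an unadjusted p under 0.05. The log2 differences, MinION minus PromethION, ran from -0.87 for IRF9 (edgeR adjusted p = 0.11) to 0.5 for USP18. The joined IRF9 identifier was at 22.7 ± 0.5 CPM (SD, n = 2) on PromethION and 12.7 ± 0.1 CPM (SD, n = 2) on MinION, groups that do not overlap.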

How the data were processed

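RNA of 7 ovarian cancer cell lines was purified with the RNeasy Plus Mini kit and sequenced with the LSK-110 ligation kit on nanopore instruments, per the labels' protocols. The submitters' processing notes name minimap2 2.24-r1122 and GRCh38. The quantification settings, read filters and use of strand were not given in the sources used, so reads of overlapping, antisense or near-identical genes cannot be told apart. The authors' deposited values are estimated counts per transcript, and 73.6% to 76.1% of a library's nonzero estimates were not whole. The deposited TPM equalled the transcript's count scaled by the library total (CPM) to within 5.6e-11, so it carries no length correction.

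The 39 members and all gene lists were chosen with earlier results of these data known. Transcript estimates were summed per gene identifier and rounded, which lost at most 0.026% of a library's counts. IFIT2 and IRF9 lie in joined identifiers. All 10 libraries, as 8 groups of line and instrument, entered 1 edgeR 4.0.16 fit (R 4.3.3): filterByExpr, TMM scaling and the quasi-likelihood test, with Benjamini-Hochberg adjustment over 13030 genes. The fit has 2 residual degrees of freedom, all from IGROV-1. An SE printed with a log2 change is the size of the change divided by the square root of the test's F statistic. It was not fitted directly and is unstable for changes near 0. Changes in transcript usage were tested with edgeR's diffSpliceDGE and Simes p-values. DESeq2 1.42.0, other scalings and filters, PromethION libraries alone, leaving out each IGROV-1 library and splitting joined identifiers were the alternatives, and the comparison of COV504 with COV362, the usage comparisons between the 6 other lines and the split were added after seeing the data. The edgeR tests were also run on counts simulated from these data, with 200 changed features and no other difference. For COV504 against IGROV-1, 0% of genes changed by a log2 of 1 were called, and 97% of those changed by 2. Between instruments 83.5% of genes changed by 1 were called, and 8.2% of the calls were false. For transcript usage 41% of genes changed by 2 were called. A gene that was not called can therefore still differ. Values in every library are given for the members with the widest range within a role or called in at least 5 lines, and for the few others because they were lower in some line or were the rest of a role, chosen after their values were seen. The IGROV-1 replicate pairs differed by more than counting noise (chi-square per degree of freedom 4.36 over 9673 genes on PromethION and 6.73 over 10200 on MinION). Intervals and limits for a count of 0 cover counting error only. Promoter windows are RefSeq's on GRCh38.p14, and transcripts and coordinates are those of GENCODE 29 on GRCh38, counted from 1.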

Additional observations from a re-analysis of the deposited data

How the results depend on the processing

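Of the comparisons against IGROV-1, those of OVMANA, SK-OV-3, COV362 and COV504 stayed within 1.5 times of their number of called members under every alternative run. With DESeq2, OVKATE fell from 30 to 18 called members and OVTOKO from 30 to 19, and the comparisons with the other 6 lines from 170 to 110 calls. With each IGROV-1 library left out in turn, the higher and lower calls together ran from 21 to 27 in OVKATE, 22 to 27 in OVTOKO, 29 to 33 in OVMANA, 23 to 27 in SK-OV-3, 35 to 36 in COV362 and 36 to 37 in COV504. Of all 196 calls, 165 were kept under each of the 9 edgeR alternatives and 137 when DESeq2 was included. No call changed sign. The 1 member with called usage against IGROV-1 (IFITM2, in OVMANA and COV504) became 0 with PromethION libraries only and to 0 without any 1 of the 4 IGROV-1 libraries. The labels do not say that equal IGROV-1 replicate numbers mark a shared culture, and 2 pairs are too few to tell: the difference of replicate 1 and replicate 2 correlated between instruments at 0.492 over 7894 genes. With the replicate number as a block, 3 members (IFITM2, IRF9 and LY6E) were called between instruments in place of 0. Scaling by library totals alone moved the median log2 change of all genes from 0.013 to 0.315 in OVKATE and from 0 to 0.196 in SK-OV-3. Usage was not run with DESeq2, with the block or with joined identifiers split. The other 6 lines have a single library, so no spread within those lines was measured, and totals of 1729782 to 3666224 counts leave members under about 1 CPM undetected.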
